A study of Homo sapiens with 9 samples.

Results

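The unfolded protein response and the integrated stress response were followed through 44 genes of the 19257 in the count table. The genes were chosen by name as known members of these pathways, but with earlier results of these data known. Of these, 16 form the branch around the transcription factor ATF4, 2 encode stress sensors of the endoplasmic reticulum (ER), and 26 form the ER branch, made of 15 chaperones and folding enzymes, 7 genes of ER-associated degradation, and XBP1 with 3 genes of protein translocation or transport. The 9 RNA-seq libraries came from cells labelled A549, a human lung adenocarcinoma line. Cells of the OGT_KO group (3 libraries) received a Lenti-CRISPR-V2 plasmid aimed at OGT, the enzyme that adds O-GlcNAc to nuclear and cytosolic proteins, and cells of the TR11B_KO group (3 libraries) received 1 aimed at TR11B, the UniProt name of osteoprotegerin (TNFRSF11B). The NC group (3 libraries) received the same plasmid empty and carries the genotype label WT. All groups were grown in DMEM with serum, without a labelled stress treatment. The sources used here give no guide sequence, clone number or time since transfection, and each knockout's columns share a single name, so a guide or clone effect and a knockout effect cannot be told apart.

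When unfolded proteins gather in the ER, the sensor PERK (encoded by EIF2AK3) phosphorylates the initiation factor eIF2, which slows most translation while ATF4 mRNA is translated more. Other eIF2 kinases answer amino acid shortage, viral RNA or lack of haem, and the joint output is called the integrated stress response. The sensor IRE1 (ERN1) splices XBP1 mRNA, and spliced XBP1 and cleaved ATF6 then raise ER chaperones and the machinery that removes misfolded proteins. Counts per gene measure mRNA abundance, and neither ATF4 protein nor XBP1 splicing can be read from them.

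The libraries held 38327508 to 42245970 counts, and 12574 genes passed the filter on low counts. Of the 44 genes, 43 were tested, and VLDLR was too low. TR11B_KO replicate 2 stood apart, with a TMM scaling factor of 0.784 where the others lay between 0.951 and 1.159. Both targets were checked first. OGT had 21.1, 28.3 and 22.8 CPM (read counts scaled for library depth) in OGT_KO, 17.0, 11.5 and 12.4 CPM in TR11B_KO, and 29.6, 26.9 and 24.7 CPM in NC. It did not pass the test in OGT_KO against NC (log2 fold change −0.17, adjusted p = 0.607) and was lower in TR11B_KO against NC (−0.99, adjusted p = 0.00393). TNFRSF11B had 1 summed count in OGT_KO, 4 in TR11B_KO and 31 in NC, ratios to NC of 0.033 (95% counting interval 0.000811 to 0.198) and 0.129 (0.033 to 0.364). The group names below therefore stand for the libraries labelled so. The cell line was checked as well: of 9 markers of epithelium and of A549, KRT8 and KRT18 lay between 2719 and 12142 CPM, but the other 7 stayed at or under 0.484 CPM in every library. Among these 7, CDH1 and AKR1C2 had no count, and AKR1B10, AKR1C1 and AKR1C3, which A549 cells are known to express strongly, reached at most 0.143 CPM, so the data go against the label A549 at these genes. The summed level of the 9 markers was 7690 to 9753 CPM in OGT_KO, 13582 to 21647 CPM in TR11B_KO and 16902 to 18943 CPM in NC, so OGT_KO lay below NC while TR11B_KO overlapped NC, and its part in the results below was not tested. The summed markers of fibroblasts, of leukocytes and of endothelium each reached at most 0.871 CPM in any library.

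Compared per length, the stress genes covered a wide range of abundance. The median of the authors' FPKM over the 9 libraries was highest for CALR (520), which encodes the ER chaperone calreticulin, followed by P4HB (396), a protein disulfide isomerase, and SDF2L1 (223), an ER chaperone cofactor. ATF5 (119) was the most abundant gene of the ATF4 branch, and ATF4 itself lay at 28.0 FPKM. The sensors were scarce, at 0.167 FPKM for EIF2AK3 and 0.134 FPKM for ERN1. ASNS, the asparagine synthetase gene and a standard ATF4 target, had 8, 45 and 24 counts in OGT_KO, 25, 8 and 17 counts in TR11B_KO, and 12, 28 and 20 counts in NC. VLDLR, a lipoprotein receptor gene, had 7, 4 and 7 counts in OGT_KO, 4, 0 and 0 counts in TR11B_KO, and 0, 1 and 0 counts in NC. Its summed counts of 18 in OGT_KO and 1 in NC gave a ratio of 18.4 with a counting interval from 2.91 to 768.

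**Figure D1:**
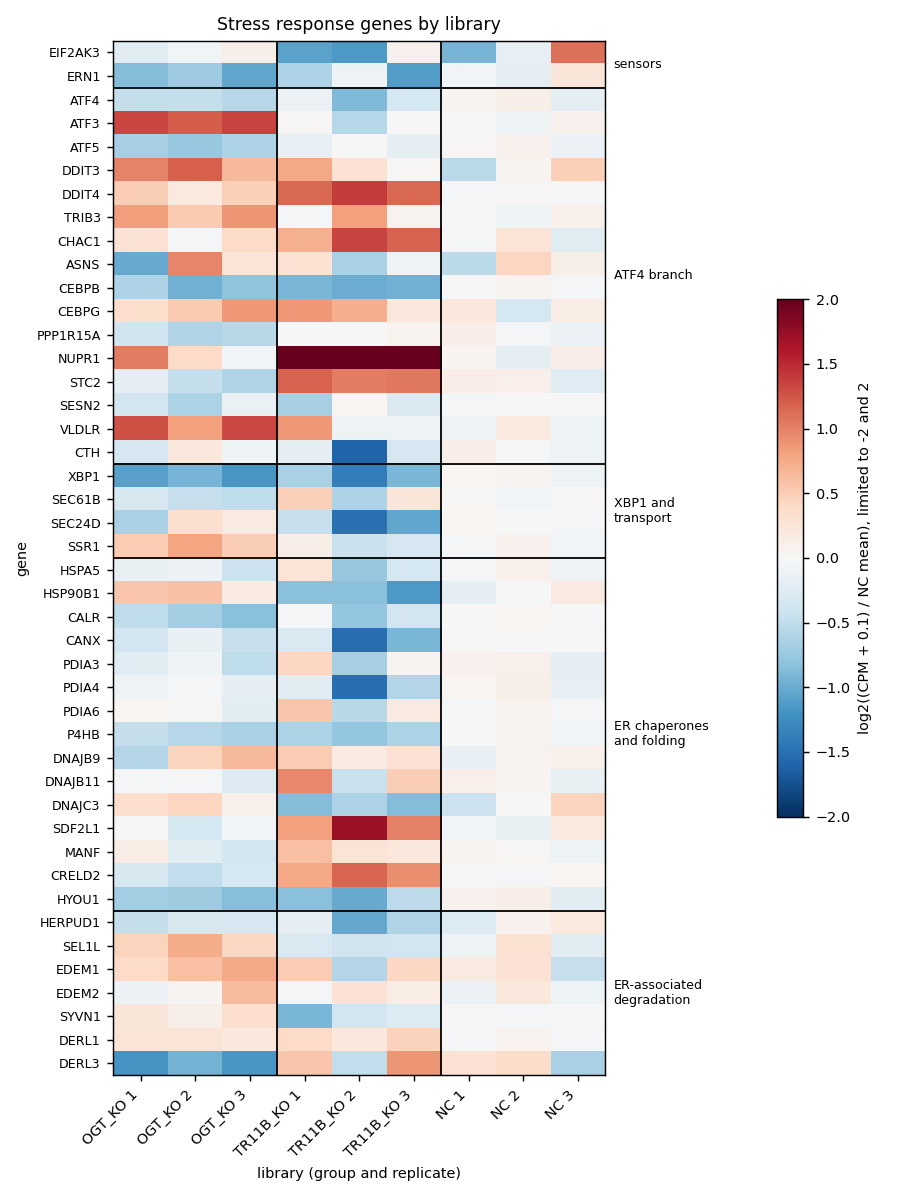
Level of each of the 44 genes (rows, grouped by role) in each library (columns), as log2 of CPM plus 0.1 relative to the NC mean, with colour limited to −2 and 2. ATF3 is high in the 3 OGT_KO libraries and NUPR1 in the 3 TR11B_KO libraries, and XBP1 is low in all 6 knockout libraries. TR11B_KO replicate 2 is the lowest of its group in 19 of 26 ER branch genes and the highest in 5. The same count was not made over all genes.

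In OGT_KO against NC, 10 of 43 genes passed the edgeR test at an adjusted p under 0.05, 3 higher and 7 lower. This is 23.3% of the genes, beside 18.3% of all genes tested (8.26% higher and 10.1% lower). ATF3, DDIT3 and TRIB3 were higher, and ATF5, CEBPB, PPP1R15A, CALR, P4HB, HYOU1 and XBP1 were lower. In the ATF4 branch 3 of 15 tested genes were higher and 3 lower, and in the ER branch 0 of 26 were higher and 4 lower (3 and 6 at an unadjusted p under 0.05, and 1 and 4 by DESeq2). The median log2 fold change was 0.20 over the ATF4 branch, −0.12 over the ER branch and 0.03 over all genes tested. The ATF4 branch median was −0.23 without OGT_KO replicate 2, so its direction rested on that library. The number of genes called was 5, 6 and 4 without OGT_KO replicate 1, 2 or 3, 4, 4 and 6 without NC replicate 1, 2 or 3, and 19 without TR11B_KO replicate 2. The share of all genes called moved too, to 9.07%, 9.12% and 9.74% without OGT_KO replicate 1, 2 or 3, to 8.34%, 9.1% and 11.2% without NC replicate 1, 2 or 3, and to 35.4% without TR11B_KO replicate 2.

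In TR11B_KO against NC, 13 of 43 genes passed the test, 6 higher and 7 lower. This is 30.2% of the genes, beside 27.6% of all genes tested (13.2% higher and 14.3% lower). DDIT4, CHAC1, NUPR1, STC2, SDF2L1 and CRELD2 were higher, and CEBPB, HSP90B1, CANX, P4HB, HYOU1, XBP1 and SEC24D were lower. In the ATF4 branch 4 of 15 genes were higher and 1 lower, with a median of 0.02, and in the ER branch 2 of 26 were higher and 6 lower, with a median of −0.21. The median over all genes tested was −0.01. Without TR11B_KO replicate 2, the ER branch had 7 higher and 7 lower genes and a median of −0.03, while the ATF4 branch had 4 higher and 1 lower. The share of all genes called was 34.2% without that library.

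OGT_KO and TR11B_KO share their NC libraries as the base of comparison, so each gene's own values in both are given side by side below. Libraries of the compared groups did not overlap for 26 of 43 genes in OGT_KO against NC, where 49.8% of all genes tested did not, and for 22 of 43 in TR11B_KO against NC, where 40.9% did not. Replicates spread most in TR11B_KO: the median SD of log2 CPM over the ER branch was 0.17 in OGT_KO, 0.38 in TR11B_KO and 0.11 in NC.

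**Figure D2:**
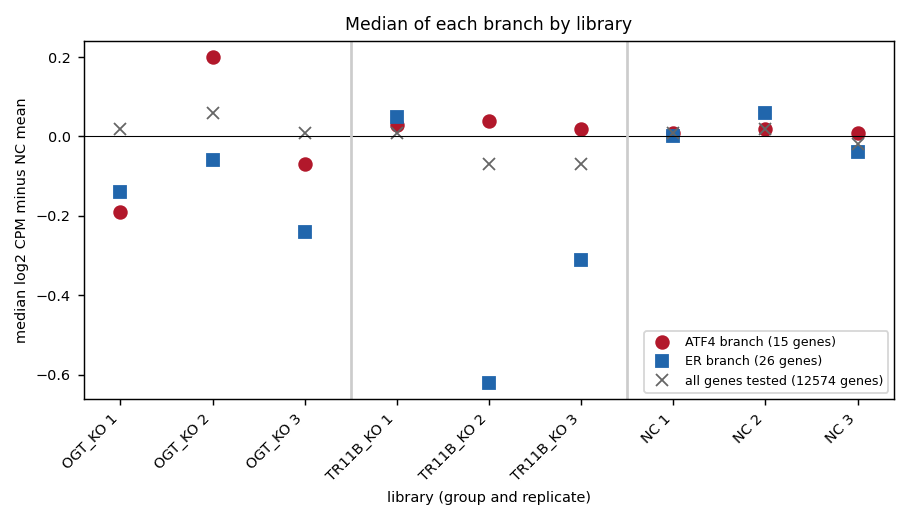
Median difference from the NC mean, in log2 CPM, of the ATF4 branch (circles), the ER branch (squares) and all genes tested (crosses) in each of the 9 libraries. The ER branch lies at 0.05, −0.62 and −0.31 in the 3 TR11B_KO libraries, a wider span than in OGT_KO or NC.

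Neither sensor passed the edgeR test in any comparison. EIF2AK3, which encodes PERK, was at 0.773, 0.878 and 1.00 CPM in OGT_KO, 0.381, 0.355 and 0.973 CPM in TR11B_KO, and 0.43, 0.8 and 2.07 CPM in NC. ERN1, which encodes IRE1, was at 1.14, 1.26 and 1.00 CPM in OGT_KO, 1.38, 2.00 and 0.947 CPM in TR11B_KO, and 2.08, 1.88 and 2.58 CPM in NC. All OGT_KO libraries lay below all NC libraries for ERN1, but its log2 fold change of −0.94 ± 0.32 (standard error, SE, as for all fold changes here) missed the threshold (adjusted p = 0.0568). By DESeq2, ERN1 was the 1 sensor called there, and at an unadjusted p under 0.05 it was again the 1 sensor in edgeR.

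ATF4, the central transcription factor of the integrated stress response, had 186, 186 and 175 CPM in OGT_KO, 239, 140 and 202 CPM in TR11B_KO, and 270, 281 and 229 CPM in NC. The OGT_KO libraries all lay below NC, yet ATF4 was not called in OGT_KO (−0.51 ± 0.19, adjusted p = 0.0838) nor in TR11B_KO (−0.43 ± 0.19, adjusted p = 0.117). In OGT_KO it was called lower in 4 of 20 alternative settings, among them without TR11B_KO replicate 2 (−0.50, adjusted p = 0.00177). ATF3, a stress-induced factor of the same family, had 14.6, 13.3 and 14.8 CPM in OGT_KO, 5.83, 3.8 and 5.68 CPM in TR11B_KO, and 5.73, 5.34 and 6.08 CPM in NC. It was 2.49-fold higher in OGT_KO than in NC (1.32 ± 0.22, adjusted p = 0.00125), passed in all 20 alternative settings (other scalings, filters and models, and each library left out in turn), and was not called in TR11B_KO (−0.16 ± 0.22, adjusted p = 0.623). DDIT3, which encodes the pro-apoptotic factor CHOP, had 7.07, 8.22 and 5.59 CPM in OGT_KO, 6.09, 4.32 and 3.56 CPM in TR11B_KO, and 2.39, 3.67 and 4.93 CPM in NC. It was higher in OGT_KO (0.93 ± 0.29, adjusted p = 0.0421) in 12 of 20 settings, and did not pass without OGT_KO replicate 1, 2 or 3 or NC replicate 1 or 2 (0.69 to 1.06, adjusted p = 0.0592 to 0.188).

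CEBPB, a bZIP factor that pairs with members of the ATF4 family, had 96.8, 76.5 and 85.0 CPM in OGT_KO, 78.7, 74.2 and 76.2 CPM in TR11B_KO, and 147, 154 and 144 CPM in NC. Every knockout library lay below every NC library, and the gene was lower in OGT_KO (−0.78 ± 0.16, adjusted p = 0.00371) and in TR11B_KO (−0.96 ± 0.16, adjusted p = 0.000871), both in all 20 settings. ATF5, a factor translated under the same control as ATF4, was at 249, 235 and 258 CPM in OGT_KO, 351, 398 and 347 CPM in TR11B_KO, and 404, 418 and 366 CPM in NC. It was lower in OGT_KO than in NC in all 20 settings (−0.68 ± 0.15, adjusted p = 0.00826). CEBPG, a partner of ATF4, was called in neither knockout (0.60, adjusted p = 0.147 in OGT_KO, and 0.63, adjusted p = 0.108 in TR11B_KO).

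Of the targets of ATF4 and CHOP, TRIB3 was higher and PPP1R15A lower in OGT_KO against NC, and 4 others were higher in TR11B_KO against NC. TRIB3, a pseudokinase that feeds back on ATF4 and CHOP, had 146, 117 and 151 CPM in OGT_KO, 80.4, 144 and 86.1 CPM in TR11B_KO, and 81.4, 76.8 and 87.4 CPM in NC. It was higher in OGT_KO (0.75 ± 0.22, adjusted p = 0.0269) in 14 of 20 settings, and did not pass without OGT_KO replicate 1 or 3 or any 1 of the NC libraries (0.68 to 0.80, adjusted p = 0.0643 to 0.107). Within TR11B_KO only replicate 2 was high for TRIB3. PPP1R15A, which encodes the phosphatase subunit GADD34 that restores translation, had 31.1, 27.0 and 28.1 CPM in OGT_KO, 41.1, 41.1 and 43.1 CPM in TR11B_KO, and 45.1, 40.7 and 38 CPM in NC. Its lower level in OGT_KO (−0.52 ± 0.16, adjusted p = 0.0392) passed in 8 of 20 settings and was lost without any 1 of the OGT_KO or NC libraries or TR11B_KO replicate 3 (−0.59 to −0.46, adjusted p = 0.0548 to 0.178).

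Another 4 targets were higher in TR11B_KO against NC in all 20 settings, and none of them was called in OGT_KO against NC in the main edgeR fit. CHAC1, an enzyme that degrades glutathione, had 13.1, 10.4 and 13.9 CPM in OGT_KO, 17.6, 27.4 and 24.3 CPM in TR11B_KO, and 10.4, 13.0 and 9.02 CPM in NC, 2.13-fold higher in TR11B_KO than in NC (1.09 ± 0.23, adjusted p = 0.00384). DDIT4, which encodes the mTORC1 inhibitor REDD1, had 66.5, 54.2 and 65.4 CPM in OGT_KO, 104, 124 and 105 CPM in TR11B_KO, and 46.0, 47.7 and 47.6 CPM in NC, a 2.37-fold difference in TR11B_KO (1.24 ± 0.16, adjusted p = 0.000263). STC2, a secreted glycoprotein, had 39.8, 32.6 and 29.9 CPM in OGT_KO, 103, 92.7 and 94.2 CPM in TR11B_KO, and 49.9, 48.6 and 38.5 CPM in NC (1.08 ± 0.18 in TR11B_KO, adjusted p = 0.000897). In OGT_KO against NC, DDIT4 (0.40, adjusted p = 0.1) was called higher in 7 of 20 settings, with adjusted p = 0.0156 without TR11B_KO replicate 2. STC2 (−0.42, adjusted p = 0.109 in OGT_KO) was called lower there in 2 of 20 settings, with adjusted p = 0.0201 without the same library. For CHAC1, DDIT4 and STC2 each TR11B_KO library exceeded each OGT_KO and NC library. NUPR1, a small stress-induced chromatin protein, had 0.523, 0.293 and 0.19 CPM in OGT_KO, 1.24, 1.48 and 1.10 CPM in TR11B_KO, and 0.215, 0.165 and 0.23 CPM in NC (2.63 ± 0.50 in TR11B_KO, adjusted p = 0.00205). The remaining genes of the branch, ASNS, SESN2 and CTH, passed in no comparison, with log2 fold changes from −0.63 to 0.28 against NC.

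**Figure D3:**
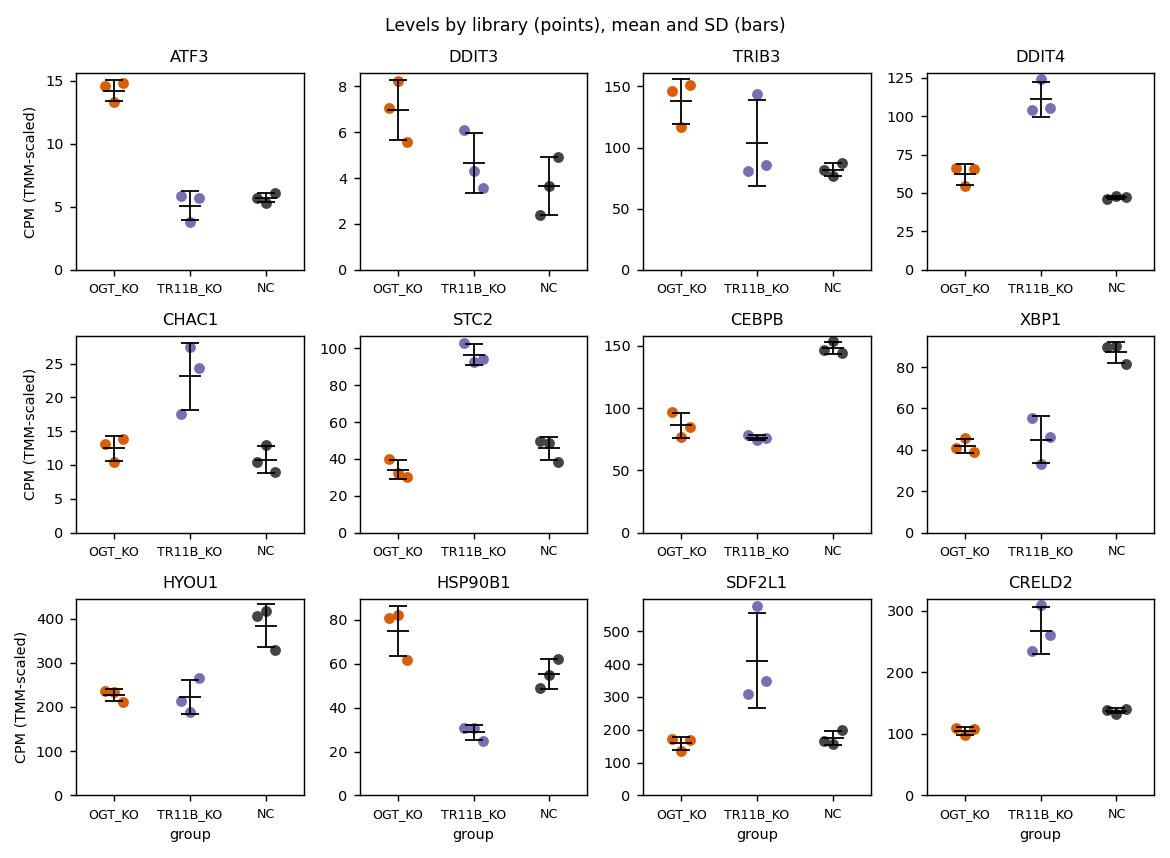
TMM-scaled CPM of 12 genes in the 3 libraries of each group (points, OGT_KO left, TR11B_KO middle, NC right), with the mean and SD. ATF3, DDIT3 and TRIB3 are highest on average in OGT_KO, DDIT4, CHAC1, STC2, SDF2L1 and CRELD2 in TR11B_KO, and CEBPB, XBP1 and HYOU1 in NC.

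The promoters of ATF3 and CHAC1 are shown because these 2 genes of the ATF4 branch were higher in different knockouts. RefSeq promoter sequence of GRCh38.p14, from 250 bases before to 50 after the annotated start, was found for 39 of the 44 genes. It was searched on both strands for the core of the C/EBP-ATF response element bound by ATF4 with its partners, TGATGNAA. Only this window of each gene was searched, so sites farther away or at other starts of a gene were not seen. Capitals mark this core. It lies on the plus strand of the gene in ATF3, with its first base at −191 from the start, and on the opposite strand in CHAC1, at −209.
ATF3 promoter, chr1:212565157-212565456, plus strand: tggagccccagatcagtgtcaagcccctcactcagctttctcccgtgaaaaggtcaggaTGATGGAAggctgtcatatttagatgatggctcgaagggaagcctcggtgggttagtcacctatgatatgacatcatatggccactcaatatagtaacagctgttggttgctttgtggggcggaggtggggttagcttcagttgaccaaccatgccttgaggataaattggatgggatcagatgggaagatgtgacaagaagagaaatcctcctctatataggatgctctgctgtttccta
CHAC1 promoter, chr15:40953221-40953520, plus strand: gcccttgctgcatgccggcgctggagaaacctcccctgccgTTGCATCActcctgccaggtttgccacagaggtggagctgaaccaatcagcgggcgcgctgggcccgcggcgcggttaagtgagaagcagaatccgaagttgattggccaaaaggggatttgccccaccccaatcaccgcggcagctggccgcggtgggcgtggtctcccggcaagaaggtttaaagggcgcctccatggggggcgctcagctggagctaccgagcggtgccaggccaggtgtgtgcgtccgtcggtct
The core also stood in ASNS at −68 and in HERPUD1 at −176, thus in 3 of 15 promoters of the ATF4 branch and 1 of 22 of the ER branch, beside 3.67% of all 27305 RefSeq promoters and 1.48% of the 10102 promoters of tested genes. Both shares include ATF3, CHAC1, ASNS and HERPUD1 themselves. A gene with the core in this window was therefore called in OGT_KO (ATF3), in TR11B_KO (CHAC1) or in neither (ASNS, HERPUD1).

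XBP1, the transcription factor whose spliced form raises ER branch genes together with cleaved ATF6, was lower in mRNA level in both knockouts. It had 41.0, 45.6 and 38.9 CPM in OGT_KO, 55.6, 33.3 and 46.0 CPM in TR11B_KO, and 89.8, 90.2 and 81.4 CPM in NC. All 6 knockout libraries lay below all 3 NC libraries. The log2 fold change against NC was −1.06 ± 0.19 in OGT_KO (adjusted p = 0.00223) and −0.95 ± 0.19 in TR11B_KO (adjusted p = 0.00305), and both calls held in all 20 settings, with −0.75 in TR11B_KO without its replicate 2. The knockouts were not told apart from each other (−0.11 ± 0.19, adjusted p = 0.707).

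The XBP1 promoter carries the ER stress response element (ERSE), CCAAT, any 9 bases, then CCACG, through which ATF6 and NF-Y act. The element was found on either strand in 6 of 22 promoters of the ER branch, in 0 of 15 of the ATF4 branch, in 22 of all 27305 promoters (0.0806%) and in 14 of the 10102 of tested genes (0.139%). The 22 and the 14 each include the same 6 promoters of the ER branch. The 6 genes with it were not called alike, which is why their sites are set out here, each read along the strand of its gene with the element in capitals. CANX, HSP90B1 (first site), HSPA5 and XBP1 carry it in the forward sense, at −151, −194, −66 and −52, and CALR, CRELD2 and HSP90B1 (second site) carry it in reverse, at −225, −80 and −89.
HSP90B1, first site: CCAATCGGAAGGAGCCACG
HSP90B1, second site: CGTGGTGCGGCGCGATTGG
HSPA5: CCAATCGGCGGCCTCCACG
CALR: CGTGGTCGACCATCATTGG
CANX: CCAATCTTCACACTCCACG
CRELD2: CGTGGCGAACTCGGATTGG
XBP1: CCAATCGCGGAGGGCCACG
The 300-base promoters of XBP1 and CRELD2 are given in full because these genes, both with the element, were called in opposite directions in TR11B_KO against NC.
XBP1 promoter, chr22:28800520-28800819, minus strand: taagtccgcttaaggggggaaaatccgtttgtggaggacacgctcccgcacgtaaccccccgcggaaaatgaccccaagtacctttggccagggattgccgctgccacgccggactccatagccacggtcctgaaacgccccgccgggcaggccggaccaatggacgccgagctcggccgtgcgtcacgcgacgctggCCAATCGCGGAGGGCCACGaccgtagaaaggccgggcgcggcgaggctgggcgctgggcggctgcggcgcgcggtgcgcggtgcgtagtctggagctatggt
CRELD2 promoter, chr22:49918384-49918683, plus strand: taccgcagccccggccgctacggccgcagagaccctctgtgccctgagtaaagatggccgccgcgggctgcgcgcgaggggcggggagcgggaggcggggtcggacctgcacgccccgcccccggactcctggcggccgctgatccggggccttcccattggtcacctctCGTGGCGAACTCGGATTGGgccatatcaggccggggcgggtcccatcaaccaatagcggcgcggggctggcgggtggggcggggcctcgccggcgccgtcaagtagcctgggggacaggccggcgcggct
Among the 6, CRELD2 was higher in TR11B_KO against NC, XBP1, HSP90B1 and CANX were lower, and HSPA5 and CALR were not called there. In OGT_KO against NC, XBP1 and CALR were lower and the other 4 were not called. HYOU1 carried the core of another XBP1 and ATF6 element, TGACGTGG, at −188, beside 0.795% of all promoters and 0.911% of those of tested genes. Both shares include HYOU1 itself.

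Among the chaperones, the central ER chaperone BiP, encoded by HSPA5, was not called in either knockout. It had 233, 238 and 193 CPM in OGT_KO, 312, 153 and 202 CPM in TR11B_KO, and 253, 278 and 247 CPM in NC, with log2 fold changes against NC of −0.23 ± 0.22 in OGT_KO (adjusted p = 0.511) and −0.22 ± 0.22 in TR11B_KO (adjusted p = 0.492). HYOU1, the ER chaperone and nucleotide exchange factor of BiP, was lower in both. It had 235, 233 and 211 CPM in OGT_KO, 214, 189 and 265 CPM in TR11B_KO, and 406, 417 and 328 CPM in NC. Its fold change was −0.76 ± 0.18 in OGT_KO (adjusted p = 0.00895) and −0.79 ± 0.18 in TR11B_KO (adjusted p = 0.00541). The OGT_KO call did not pass without OGT_KO replicate 3 or NC replicate 1 or 2 (−0.72 to −0.70, adjusted p = 0.0513 to 0.0521).

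P4HB, which forms disulfide bonds in client proteins, had 956, 896 and 851 CPM in OGT_KO, 853, 779 and 860 CPM in TR11B_KO, and 1320, 1383 and 1286 CPM in NC. All knockout libraries lay below NC, with −0.56 ± 0.15 in OGT_KO (adjusted p = 0.0185) and −0.68 ± 0.15 in TR11B_KO (adjusted p = 0.00483). The OGT_KO call passed in 13 of 20 settings and was lost without any 1 of the OGT_KO or NC libraries (−0.61 to −0.52, adjusted p = 0.0501 to 0.0877). CALR had 929, 825 and 735 CPM in OGT_KO, 1293, 769 and 1007 CPM in TR11B_KO, and 1310, 1352 and 1284 CPM in NC. Calreticulin mRNA was lower in OGT_KO (−0.66 ± 0.19, adjusted p = 0.0277) in 11 of 20 settings, and did not pass without any 1 of the OGT_KO or NC libraries (−0.75 to −0.58, adjusted p = 0.0584 to 0.119).

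HSP90B1, which encodes the ER form of HSP90 (GRP94), was lower in TR11B_KO. It had 80.9, 82.4 and 61.6 CPM in OGT_KO, 30.7, 30.8 and 24.7 CPM in TR11B_KO, and 48.9, 55.1 and 62.2 CPM in NC. The TR11B_KO libraries all lay below NC (−0.95 ± 0.18, adjusted p = 0.00242, all 20 settings), while OGT_KO was not called (0.44 ± 0.18, adjusted p = 0.109). CANX, the lectin chaperone calnexin, had 83.1, 97.8 and 78.3 CPM in OGT_KO, 87.1, 37.3 and 57.0 CPM in TR11B_KO, and 110, 107 and 107 CPM in NC. It was lower in TR11B_KO (−0.84 ± 0.24, adjusted p = 0.0202, 14 of 20 settings), with −0.56 (adjusted p = 0.00563) without TR11B_KO replicate 2, and was lost without TR11B_KO replicate 3 or any 1 of the NC libraries (−0.85 to −0.80, adjusted p = 0.0504 to 0.0655).

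SDF2L1 and CRELD2, both small ER proteins that assist folding, were higher in TR11B_KO. CRELD2 had 110, 97.9 and 108 CPM in OGT_KO, 234, 309 and 261 CPM in TR11B_KO, and 138, 133 and 141 CPM in NC, 1.95-fold higher in TR11B_KO than in NC in all 20 settings (0.96 ± 0.16, adjusted p = 0.00103). SDF2L1 had 172, 136 and 168 CPM in OGT_KO, 308, 577 and 348 CPM in TR11B_KO, and 167, 157 and 200 CPM in NC (1.23 ± 0.23, adjusted p = 0.0017). The SDF2L1 call was lost when fold changes were corrected for gene length (0.57, adjusted p = 0.0588) or for length and GC content (0.13, adjusted p = 0.291). Fold changes in TR11B_KO against NC correlated with gene length across the 12574 genes tested (Spearman rho −0.313, a description across genes, which are not independent replicates), against 0.066 in OGT_KO. In OGT_KO against TR11B_KO it was 0.333. With GC content, over 11729 genes, rho was −0.238 in OGT_KO against NC, 0.149 in TR11B_KO against NC and −0.314 in OGT_KO against TR11B_KO. Among the more abundant genes these GC values were −0.053, 0.238 and −0.252. The length values among the same genes were −0.047, −0.407 and 0.352, in the same order. The median gene length was 3347 bases in the ATF4 branch, 3036 bases in the ER branch and 3965 bases over all genes tested. Median GC content was 54.2% in the ATF4 branch, 45.9% in the ER branch and 49.1% over all genes tested. The part of this difference in the branch medians was not tested.

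The other chaperones, PDIA3, PDIA4, PDIA6, DNAJB9, DNAJB11, DNAJC3 and MANF, passed in neither knockout against NC. Several of them were low in TR11B_KO replicate 2, the lowest of its group in 10 of 15 chaperones and the highest in 4. In the ATF4 branch, TR11B_KO replicate 2 was lowest in 6 of 15 tested genes and highest in 6. The same counts were not made over all genes tested, so they are not read as particular to chaperones. Without that library, 5 genes of the ER branch that were not called with it became higher in TR11B_KO, namely DNAJB11 (0.77, adjusted p = 0.00181), PDIA6 (0.41, adjusted p = 0.0283), MANF (0.45, adjusted p = 0.0278), DERL1 (0.45, adjusted p = 0.0131) and SEC61B (0.39, adjusted p = 0.0347). PDIA4 (−0.36, adjusted p = 0.0492) and SYVN1 (−0.52, adjusted p = 0.0187) became lower. These genes were singled out after their values were seen, and the share of all genes called there was 34.2%, against 27.6% with all libraries. With all libraries, SEC61B had a negative value with the length correction (−0.71, adjusted p = 0.0447), as had MANF (−0.25, adjusted p = 0.343). DNAJB11 was 0.12 with the length correction and −0.12 with length and GC content.

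Of the 7 genes of ER-associated degradation, 0 were called by edgeR against NC. At an unadjusted p under 0.05, 1 was higher and 1 lower in OGT_KO, and 1 was higher and 2 lower in TR11B_KO, while DESeq2 called 0 in OGT_KO and 1 in TR11B_KO. HERPUD1, which encodes a scaffold of the ubiquitin ligase complex in the ER membrane, had 37.3, 41.5 and 41.2 CPM in OGT_KO, 45.8, 25.5 and 34.1 CPM in TR11B_KO, and 42.9, 55.1 and 59.4 CPM in NC. Its log2 fold change was −0.39 ± 0.21 in OGT_KO (adjusted p = 0.22) and −0.58 ± 0.21 in TR11B_KO (adjusted p = 0.0588). Of the transport genes, SEC24D, a cargo adaptor of COPII vesicles that leave the ER, had 1.77, 3.56 and 3.21 CPM in OGT_KO, 2.02, 0.935 and 1.33 CPM in TR11B_KO, and 2.89, 2.82 and 2.76 CPM in NC. It was lower in TR11B_KO (−0.97 ± 0.33, adjusted p = 0.0419) in 6 of 20 settings. The SEC24D call did not pass without TR11B_KO replicate 2 or 3, OGT_KO replicate 2 or 3 or any 1 of the NC libraries (−0.99 to −0.72, adjusted p = 0.0521 to 0.108).

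**Figure D4:**
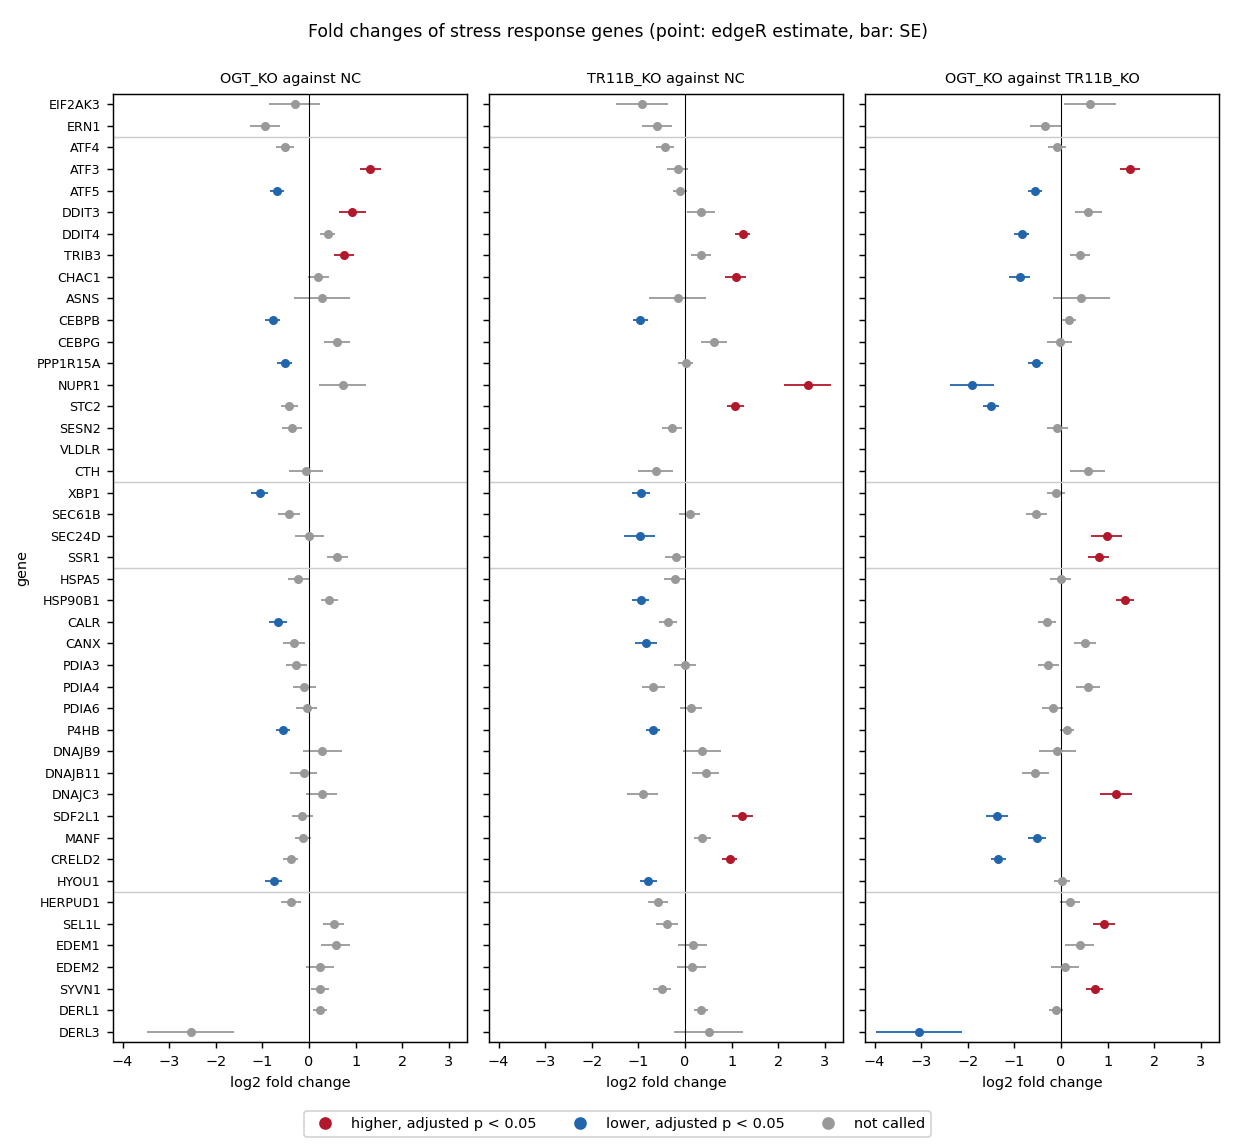
Log2 fold change (point) and SE (bar) of each tested gene in OGT_KO against NC, TR11B_KO against NC and OGT_KO against TR11B_KO, grouped by role as in the plot by library, with calls at an adjusted p under 0.05 in red (higher) or blue (lower). XBP1, HYOU1, P4HB and CEBPB are blue in both comparisons with NC, and VLDLR has no point because it was too low to be tested.

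Set directly against each other, OGT_KO and TR11B_KO differed in 17 of 43 genes, 7 higher and 10 lower in OGT_KO. This is 39.5% of the genes, beside 33.2% of all genes tested (16.7% higher and 16.5% lower). The ATF4 branch had 1 higher gene, ATF3, and 6 lower ones, namely ATF5, DDIT4, CHAC1, PPP1R15A, NUPR1 and STC2, with a median log2 fold change of −0.08. The ER branch had 6 higher and 4 lower genes and a median of 0.01, where all genes tested had 0.06. Without OGT_KO replicate 2, 9 genes were called, where 18.7% of all genes tested were. ATF3 was 2.78-fold higher in OGT_KO (1.48 ± 0.22, adjusted p = 0.000282). STC2 (−1.50 ± 0.18, adjusted p = 4.35e-05), DDIT4 (−0.84 ± 0.16, adjusted p = 0.00155) and NUPR1 (−1.91 ± 0.47, adjusted p = 0.00725) were lower in OGT_KO. CHAC1 (−0.89 ± 0.23, adjusted p = 0.00901) and ATF5 (−0.56 ± 0.15, adjusted p = 0.0125) did not pass without OGT_KO replicate 2 (−0.78, adjusted p = 0.059, and −0.52, adjusted p = 0.0605). PPP1R15A (−0.54 ± 0.16, adjusted p = 0.021) passed in 10 of 20 settings and was lost without OGT_KO replicate 2 or 3 or TR11B_KO replicate 3 (−0.52 to −0.50, adjusted p = 0.0631 to 0.0915).

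In the ER branch, HSP90B1 was 2.61-fold higher in OGT_KO than in TR11B_KO (1.38 ± 0.19, adjusted p = 0.000119), while CRELD2 (−1.35 ± 0.16, adjusted p = 4.93e-05) and SDF2L1 (−1.37 ± 0.23, adjusted p = 0.000548) were lower, each in all 20 settings. The genes of the membrane ubiquitin ligase HRD1 (SYVN1) and its partner (SEL1L) were both higher in OGT_KO than in TR11B_KO. Neither was called against NC. SYVN1 was 0.23 in OGT_KO (adjusted p = 0.43) and −0.49 in TR11B_KO (adjusted p = 0.067). SEL1L was 0.53 in OGT_KO (adjusted p = 0.123) and −0.39 in TR11B_KO (adjusted p = 0.233). SYVN1, which encodes HRD1, had 41.9, 38.4 and 44.7 CPM in OGT_KO against 18.9, 27.4 and 29.4 CPM in TR11B_KO (0.72 ± 0.19, adjusted p = 0.0105, all 20 settings), and SEL1L, its adaptor, had 5.00, 6.12 and 4.86 CPM against 2.93, 2.74 and 2.77 CPM in TR11B_KO (0.92 ± 0.23, adjusted p = 0.00847). The SEL1L call was lost with the correction for length (0.58, adjusted p = 0.0609) and for length and GC content (0.50, adjusted p = 0.0963). DNAJC3, which encodes the PERK inhibitor P58IPK, had 1.66, 1.78 and 1.40 CPM in OGT_KO against 0.666, 0.806 and 0.666 CPM in TR11B_KO (1.18 ± 0.34, adjusted p = 0.0167). SSR1, a subunit of the translocon-associated complex, had 13.4, 16.4 and 13.3 CPM in OGT_KO against 10.2, 6.93 and 7.43 CPM in TR11B_KO (0.81 ± 0.22, adjusted p = 0.0112). Neither DNAJC3 (1.11, adjusted p = 0.062) nor SSR1 (0.71, adjusted p = 0.0614) passed without OGT_KO replicate 2. Both calls were also lost with the correction for length (0.93, adjusted p = 0.0577, and 0.42, adjusted p = 0.139) and for length and GC content (0.83, adjusted p = 0.0839, and 0.35, adjusted p = 0.0737).

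The remaining direct calls were those of SEC24D, MANF and DERL3. SEC24D (0.98 ± 0.33, adjusted p = 0.0341) passed in 14 of 20 settings and was lost without OGT_KO replicate 2 or 3 or TR11B_KO replicate 2 or 3 (0.73 to 0.93, adjusted p = 0.0629 to 0.149). MANF, a secreted ER stress protein, had 63.0, 47.8 and 43.9 CPM in OGT_KO against 86.2, 68.5 and 65.2 CPM in TR11B_KO, and its call (−0.51 ± 0.19, adjusted p = 0.0482) held in 6 of 20 settings. It was lost without OGT_KO replicate 2 or 3, TR11B_KO replicate 1 or 3, or any 1 of the NC libraries (−0.58 to −0.40, adjusted p = 0.0572 to 0.19), and was −0.07 (adjusted p = 0.818) with the length correction and −0.18 (adjusted p = 0.328) with length and GC content. DERL3, a channel component of ER-associated degradation, had 1, 2 and 1 counts in OGT_KO, 13, 3 and 16 counts in TR11B_KO, and 10, 11 and 3 counts in NC. The summed 4 counts in OGT_KO against 32 in TR11B_KO gave a ratio of 0.128 (95% counting interval 0.0329 to 0.362). It passed the test (adjusted p = 0.0203) and held in 12 of 18 settings, but not without OGT_KO replicate 1, 2 or 3 or TR11B_KO replicate 3 (log2 −3.40 to −2.65, adjusted p = 0.0608 to 0.0841).

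Further genes of these pathways, in 6 lists, were counted beside the 44, and their shares called are set against 18.3% of all genes tested in OGT_KO against NC and 27.6% in TR11B_KO against NC. Of 25 tested amino acid and related targets of ATF4, 4 were higher and 7 lower in OGT_KO against NC (44% called, median log2 fold change −0.38), and 3 were higher and 4 lower in TR11B_KO against NC (28%, −0.04). PHGDH, the first enzyme of serine synthesis, went in opposite directions in all 20 settings: it had 26.4, 22.2 and 27.7 CPM in OGT_KO, 230, 383 and 258 CPM in TR11B_KO, and 63.7, 60.1 and 71.6 CPM in NC. Its log2 fold change against NC was −1.36 ± 0.20 in OGT_KO (adjusted p = 0.000614) and 2.16 ± 0.21 in TR11B_KO (adjusted p = 3.06e-05). GDF15, a secreted stress hormone, was higher in OGT_KO (1.58 ± 0.18, adjusted p = 7.18e-05), and MTHFD2, a mitochondrial folate enzyme, was lower there (−1.45 ± 0.24, adjusted p = 0.00116). SLC7A1, a cationic amino acid transporter, was lower in TR11B_KO (−1.95 ± 0.28, adjusted p = 0.000455).

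Among 17 genes of eIF2, its kinases, its exchange factor and its phosphatase, 0 were higher and 3 lower in OGT_KO (2 and 5 at an unadjusted p under 0.05, 0 and 4 by DESeq2), and 2 were higher and 3 lower in TR11B_KO, thus 17.6% and 29.4% called. DELE1, which relays mitochondrial stress to an eIF2 kinase, had 4.55, 6.06 and 4.88 CPM in OGT_KO, 10.9, 6.93 and 11 CPM in TR11B_KO, and 15.7, 17.2 and 13.1 CPM in NC (−1.57 ± 0.24 in OGT_KO, adjusted p = 0.000729), and EIF2B5, a subunit of the exchange factor, was lower in OGT_KO too (−0.67 ± 0.15, adjusted p = 0.00866). Of 7 tested genes of ATF6, the CREB3 family and their proteases, 0 were called in OGT_KO by edgeR, at an unadjusted p under 0.05 or by DESeq2, and CREB3 was higher in TR11B_KO (0.85 ± 0.19, adjusted p = 0.00601), the 1 gene of the 7 (14.3%) called there, a call lost with the length correction (0.46, adjusted p = 0.0712). Of 20 further ER folding genes, 2 were higher and 1 lower in OGT_KO (15%), and 3 were higher and 2 lower in TR11B_KO (25%). DNAJC10, a disulfide reductase that works with BiP, was higher in OGT_KO (1.28 ± 0.21, adjusted p = 0.00123), and SIL1, another exchange factor of BiP, was higher in TR11B_KO (0.98 ± 0.19, adjusted p = 0.00262).

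Of 16 further genes of ER degradation, 2 were higher and 4 lower in OGT_KO (37.5%), and 2 were higher and 5 lower in TR11B_KO (43.8%). UFD1 and NPLOC4 encode both subunits of the cofactor that guides the segregase VCP to ubiquitinated proteins. UFD1 had 68.8, 73.9 and 67.0 CPM in OGT_KO, 187, 104 and 151 CPM in TR11B_KO, and 54.9, 67.6 and 49.4 CPM in NC, and was higher in TR11B_KO (1.36 ± 0.21, adjusted p = 0.000651). NPLOC4 had 134, 127 and 106 CPM in OGT_KO, 60.6, 74.6 and 71.9 CPM in TR11B_KO, and 202, 214 and 154 CPM in NC, and was lower in TR11B_KO (−1.46 ± 0.18, adjusted p = 0.00018). Both held in all 20 settings, so these 2 partners differed in sign in TR11B_KO.

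Of 24 genes of translocation and ER exit, 3 were higher and 4 lower in OGT_KO (29.2%), and 6 were higher and 6 lower in TR11B_KO (50%). Of the COPII coat genes, SEC23A, SEC23B and SEC24C were lower in TR11B_KO (−1.56 ± 0.21, −1.63 ± 0.22 and −1.29 ± 0.17, adjusted p = 0.000335, 0.000335 and 0.000258). Others of the coat, named outside the rule for naming, did not all go lower. Mean CPM in TR11B_KO and NC was 201 and 150 for SEC13, 1.65 and 1.54 for SEC24A, and 5.98 and 9.33 for SEC31A. SEC23A was also lower in OGT_KO (−1.05 ± 0.21, adjusted p = 0.00394). SRPRB, a subunit of the receptor that docks ribosomes at the ER, had 34.9, 29.7 and 27.9 CPM in OGT_KO, 42.4, 17.2 and 26.9 CPM in TR11B_KO, and 72.0, 76.6 and 82.9 CPM in NC. It was lower in OGT_KO (−1.32 ± 0.26, adjusted p = 0.00344) and in TR11B_KO (−1.42 ± 0.26, adjusted p = 0.00167).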

How the data were processed

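RNA was sequenced from 9 samples of cells labelled A549, 3 per group, grouped by the sample titles. These titles call the samples of a group biological replicates. No label ties them to separate cultures, so the source of the spread that the p-values cover is not known, and part may be technical. Per the labels' protocols, RNA was extracted with TRIzol. The submitters' processing notes name the GRCh38 build, DESeq2, R 3.2.0, HTSeq, HISAT and fastp, without role or setting. The authors deposited raw counts per gene and FPKM values for 19257 genes. Whether counting used strand was not given, so overlapping genes and close paralogs are uncertain.

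Counts were fitted with edgeR 4.0.16 in R 4.3.3: filterByExpr, TMM scaling, and a robust quasi-likelihood F test with 1 mean per group over all 9 libraries. P-values were adjusted by Benjamini-Hochberg over all 12574 genes tested, with calls at values under 0.05. SE was the size of the log2 fold change over the square root of F. CPM are TMM-scaled. Counting intervals are exact 95% intervals of the ratio of summed counts and cover counting error only. In data simulated from these libraries the fit recovered 55%, 41% and 48% of 100 genes changed by 1 on the log2 scale (12415, 12409 and 12389 genes tested) in OGT_KO against NC, TR11B_KO against NC and OGT_KO against TR11B_KO, and 100% of genes changed by 2. The simulation gave every gene and group the same spread and left genes of low level unchanged. In the data the median SD of log2 CPM over all genes tested was 0.20 in OGT_KO, 0.44 in TR11B_KO and 0.20 in NC. The recovered shares therefore may not hold for TR11B_KO or for low genes.

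The 20 alternative settings were RLE size factors, library totals alone, DESeq2 1.42.0, no low-count filter, CPM of at least 1 in 3 libraries, a replicate block, fits of 2 groups alone, a length offset, limma 3.58.1 on log2(FPKM + 1) and log2(FPKM + 0.1), each library left out, and, added after seeing the data, length and GC offsets. Always named were OGT, TNFRSF11B, ATF4, DDIT3, ATF3, CHAC1, HSPA5, XBP1, HERPUD1, EIF2AK3 and ERN1, then each of the 44 genes called in a comparison and up to 4 per further list by adjusted p; genes outside this rule are marked in the text or given only as ranges. The 44 genes and all lists were chosen with earlier results of these data known, so no list was tested as a set. Counts of edgeR calls at an adjusted p under 0.05 stand beside those over all genes.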

Additional observations from a re-analysis of the deposited data

How the results depend on the processing

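Of the 40 calls among the 44 genes, 22 held in all 20 alternative settings (4 in OGT_KO against NC, 10 in TR11B_KO against NC and 8 in OGT_KO against TR11B_KO) and 18 were lost in at least 1. Over the 191 gene results and their settings, 3470 of 3811 values kept their side of the threshold, 247 lost the call and 91 gained one. Among those 3470, 139 values of 37 results that were called neither before nor after changed sign. In 3 further values a result called in at least 1 of the fits changed sign: SEC61B in TR11B_KO against NC with the length offset (−0.71) and with length and GC offsets (−0.54), and GDF15 in TR11B_KO against NC with length and GC offsets (−0.01). The cause was not tested.

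The number of genes called in OGT_KO against NC was 10, and 23 when only the 2 groups were fitted. The share of all genes tested that were called rose alike, from 18.3% to 41.8%. No label says that a replicate number marks a shared batch. Deviations from the group means had correlations of −0.199 to 0.0687 between same-numbered libraries and −0.1 to 0.216 between others. With 3 libraries per group these values cannot decide whether the numbers pair the samples. With the replicate block the count was 6, where 12.8% of all genes tested were called. Leaving out single libraries gave 4 to 19 in OGT_KO against NC, 11 to 19 in TR11B_KO against NC (13 with all) and 9 to 22 in OGT_KO against TR11B_KO (17 with all). Over all genes tested the counts of calls without single libraries ran from 1072 to 4536, 1813 to 4463 and 2401 to 5308 in the same order.

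The branch medians were small and moved with the scaling. For the ATF4 branch in TR11B_KO against NC (0.02) the value was 0.08 with RLE factors, −0.13 with library totals, 0.24 with DESeq2, 0.20 without the low-count filter, 0.24 with CPM of at least 1, −0.13 with the length offset, −0.01 with both offsets, −0.03 with log2(FPKM + 1), −0.13 with log2(FPKM + 0.1), and −0.04 to 0.12 without single libraries. In OGT_KO against NC the ATF4 branch ran from −0.23 to 0.35 without single libraries, and the ER branch was −0.01 with library totals, log2(FPKM + 1) and log2(FPKM + 0.1). In OGT_KO against TR11B_KO the ATF4 branch was 0.20 with library totals and 0.21 with log2(FPKM + 0.1), and the ER branch −0.06 with RLE factors and DESeq2, 0.24 with library totals, 0.09 with the length offset, 0.19 with log2(FPKM + 1), 0.29 with log2(FPKM + 0.1), and −0.15 to 0.04 without single libraries. Library totals alone moved the median of all genes to 0.147, −0.152 and 0.314 in the 3 comparisons, with 1369 higher and 890 lower calls, 1180 and 2030, and 3084 and 1268, against 1039 and 1264, 1666 and 1803, and 2104 and 2070 with TMM. The log2(FPKM + 1) fit gave 1654 higher and 887 lower, 1174 and 1914, and 3312 and 1253. On the log2(FPKM + 1) scale fold changes of low genes shrank, to −0.19 for NUPR1 in OGT_KO against TR11B_KO, against −1.91, and SDF2L1 there was −0.53 with both offsets, against −1.37. Genes at a few counts, such as VLDLR, DERL3 and ASNS, are limited by depth.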
